A study of Mus musculus with 7 samples.

Results

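The odorant signal transduction cascade was followed as 10 genes, Gnal, Gnb1, Gng13, Adcy3, Cnga2, Cnga4, Cngb1, Ano2, Slc24a4 and Stoml3, taken by name from the 50600 genes of the count and expression tables and described in all 7 libraries. Their 46 annotated transcripts were taken by the same names from the 125570 rows of the transcript table. RNA had been captured by its polyA tail from dissected olfactory epithelium of mice at postnatal day 7 and sequenced in bulk. The epithelium came from 3 Amigo1neo/neo samples (neo), whose Amigo1 coding sequence has been exchanged for a cassette that selects for neomycin resistance, from 3 Amigo1-/- samples (KO), which lack Amigo1 without that cassette being named, and from 1 Amigo1+/+ wild-type sample (WT). Neo and KO therefore share the loss of Amigo1, an adhesion protein gene, and the study's title asks what the cassette itself does to expression. Strain was not given, and neither was the promoter of the cassette. Nothing in the labels ties each library to its own animal. The p-values therefore rest on library-to-library spread alone, part of which may be technical. The WT group has no replicate.

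Libraries held 14879415 to 21343058 counts assigned to genes, and each cascade gene had between 353 and 36254 counts in each of them. Amigo1 had 11, 5 and 1 counts in neo and 0, 8 and 16 counts in KO, against 744 counts in WT, as the genotype labels state. Omp, the defining marker of mature olfactory neurons, stood at 641 to 701 TPM (a share of the library's transcripts, corrected for length) in neo, 522 to 547 TPM in KO and 669 TPM in WT. Xist, which is read from an inactive X chromosome, was high in neo library 1 and in WT, at 1145 and 643 CPM (counts divided by the TMM-scaled library size), and at most 4.21 CPM in the other 5 libraries. Ddx3y, a Y-linked gene, was at 0 CPM in neo library 1 and 0.0459 CPM in WT, and at 61.1 to 84.4 CPM in the other 5. Sex was not given in the labels. By these genes neo holds 1 female-type library and 2 male-type, KO 3 male-type and WT 1 female-type. The sample names of the neo libraries have another stem, with another date-like number, than those shared by KO and WT. The meaning of that number was not given, and it cannot be told apart from the neo genotype.

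When an odorant binds its receptor on the cilia of an olfactory neuron, the receptor activates the G protein Golf, whose alpha subunit switches on adenylyl cyclase III. The cyclic AMP made there opens a cyclic nucleotide-gated cation channel, and the calcium that enters opens a chloride channel that amplifies the depolarisation. Calcium is then cleared by a sodium/calcium-potassium exchanger. The genes for these steps are, apart from the widely expressed Gnb1, textbook markers of the mature olfactory neuron, whereas immature neurons use little of the cascade.

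Upstream sequence was read for the members because factors of the Olf/EBF family are known for sites before genes of this cascade in rodents. RefSeq gave 13 windows of 250 bases before a transcription start for 9 members on GRCm38.p6. Gnal was not used here. The palindromic core of the Olf/EBF site, CCCNNGGG with a T before it and an A after it, searched on both strands, was in 0 of the 13 windows, and 0.779% of 32851 RefSeq promoters held it. The homeodomain letters TAATTA were in 0 of the 13 windows and in 4.84% of all promoters. The shorter CCCNNGGG without its flanks, which every match of the longer core also holds, was tried after the sequences had been seen. It was in 5 of 13 windows, against 11.8% of all promoters. These matches are descriptions of letters, not of binding. The windows of 4 genes from 3 steps of the cascade are printed to show where those letters fall, 5′ to 3′ on the gene's strand and ending at the base before the start, with CCCNNGGG in capitals. Only windows with a match are printed. For Gng13 the window is chr17:25716922-25717171 (plus strand), and the capitals hold a pair of overlapping matches that begin 95 and 94 bases before the start. That window ends at the annotated start of Gng13-202, which held 3.14% of gene TPM. No match was in the other Gng13 window, chr17:25717278-25717527, which lies directly before Gng13-201 (96.9% of gene TPM). The Cnga2 window is chrX:71991599-71991848 (plus strand), with its match 66 bases before the start. The Cngb1 window is chr8:95306586-95306835 (minus strand), with its match 129 bases before the start, and lies before the annotated Cngb1-202. For Ano2, not printed, the match was in chr6:125710938-125711187. The Ano2 windows chr6:125690169-125690418 and chr6:125690369-125690618, next to the start of Ano2-204, had none. The Slc24a4 window is chr12:102128477-102128726 (plus strand), with its match 109 bases before the start.
Gng13: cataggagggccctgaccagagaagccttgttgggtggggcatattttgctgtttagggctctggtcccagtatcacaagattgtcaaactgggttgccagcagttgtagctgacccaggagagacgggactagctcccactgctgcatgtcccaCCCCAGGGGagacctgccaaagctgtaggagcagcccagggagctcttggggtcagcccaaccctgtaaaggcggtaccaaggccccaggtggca
Cnga2: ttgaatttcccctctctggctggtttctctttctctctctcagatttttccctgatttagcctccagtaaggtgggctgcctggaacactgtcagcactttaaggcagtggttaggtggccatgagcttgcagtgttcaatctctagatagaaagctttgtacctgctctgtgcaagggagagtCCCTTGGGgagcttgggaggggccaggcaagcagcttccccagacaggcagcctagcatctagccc
Cngb1: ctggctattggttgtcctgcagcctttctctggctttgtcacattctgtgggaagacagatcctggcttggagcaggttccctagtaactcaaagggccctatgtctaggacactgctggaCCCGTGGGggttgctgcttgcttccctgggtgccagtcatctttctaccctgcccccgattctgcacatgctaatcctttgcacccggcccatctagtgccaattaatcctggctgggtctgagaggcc
Slc24a4: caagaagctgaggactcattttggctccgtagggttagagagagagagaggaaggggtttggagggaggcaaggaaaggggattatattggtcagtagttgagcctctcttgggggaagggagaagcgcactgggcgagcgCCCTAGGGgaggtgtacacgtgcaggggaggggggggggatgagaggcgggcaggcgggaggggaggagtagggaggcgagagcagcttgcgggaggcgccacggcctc

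Levels per length spanned a wide range, with the G protein beta and gamma subunits at the top and the exchanger at the bottom. Over the 7 libraries, mean gene TPM ran from 842 for Gnb1 through 710.4 for Gng13, 436 for Stoml3, 224 for Gnal, 186 for Cnga2, 82.9 for Adcy3, 60.4 for Ano2, 36.6 for Cnga4 and 23.9 for Cngb1 to 12.01 for Slc24a4. Every library, of each genotype, held this same order. Across libraries the ranges of neighbouring genes overlapped for Gnb1 and Gng13, for Gnal and Cnga2, and for Adcy3 and Ano2, so the levels of those neighbours did not separate across libraries, although within each of the 7 libraries the first of each pair was the higher. The other 6 steps of the order had no overlap. The widest steps were from Cnga2 to Adcy3, a ratio of 2.25 between means, and from Cngb1 to Slc24a4, a ratio of 1.99.

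**Figure D1:**
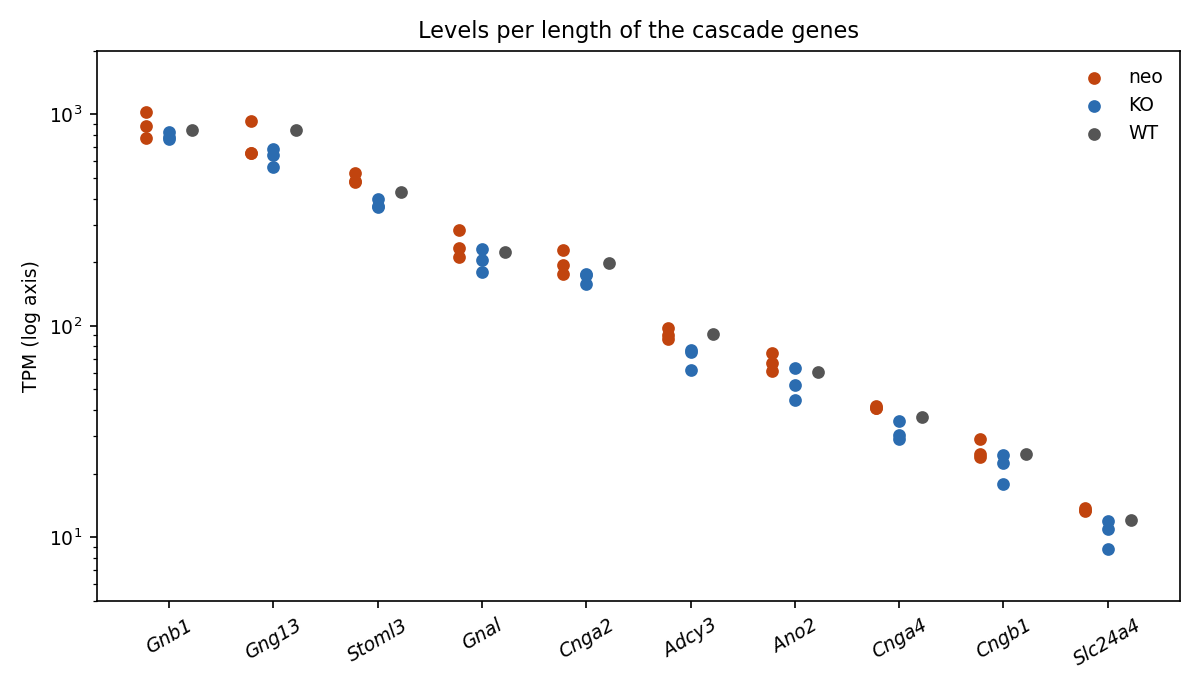
Gene TPM on a log axis of the 10 cascade genes, ordered by their mean, with 1 point for each neo (3), KO (3) and WT (1) library. The order from Gnb1 (mean 842 TPM) to Slc24a4 (mean 12.01 TPM) was the same in every library.

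Not all of each level came from transcripts annotated as protein coding. For Cnga2 the coding transcripts gave 132 TPM, 71.1% of the gene's TPM, and for Ano2 30.4 TPM, 50.7% of it. The other 8 genes had 97.2% or more of their TPM in coding transcripts. Counted on coding transcripts, Cnga4 at 36.6 TPM stood above Ano2, and the remaining order was the same. Counts and TPM also set the G protein subunits differently: Gnb1 had 22850 to 36254 counts and Gng13 had 1863 to 3645 counts, while their TPM were close. TPM divides by length, and the annotated Gng13-201 is 347 bases long where Gnb1-201 is 3131 bases long.

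Within their gene families the cascade genes were mostly, but not always, the leading paralog. Adcy3 held 75.5% of the summed TPM of 10 adenylyl cyclase genes (72.0% to 79.3% over the 7 libraries), with Adcy6 next at 11.1 TPM, then Adcy2 at 4.76 TPM and Adcy5 at 3.35 TPM. Cnga2, Cnga4 and Cngb1 held 75.3%, 14.8% and 9.64% of the cyclic nucleotide-gated channel family. The other 3 genes of that family, which serve mainly photoreceptors and, for Cnga3, a guanylyl cyclase type of olfactory neuron, averaged 0.407 TPM (Cnga3), 0.26 TPM (Cngb3) and 0.0557 TPM (Cnga1). Gnb1 made up 69.0% of the G beta sum, ahead of Gnb2 at 352 TPM, Gnb5 at 15.5 TPM and Gnb4 at 8.95 TPM. Gng13 made up 55.5% of the G gamma sum, ahead of Gng5 at 276 TPM, Gng8, the gamma subunit known from immature olfactory neurons, at 108 TPM, and Gng10 at 70.7 TPM. Stoml3 held 46.7% of the stomatin family beside Stom at 403 TPM, Stoml2 at 62.9 TPM and Stoml1 at 28.5 TPM. Ano2 held 35.8% of the anoctamins, followed by Ano1 at 39.3 TPM, Ano6 at 26.4 TPM and Ano10 at 25.4 TPM. That lead is on gene TPM. Coding transcripts gave 30.4 TPM for Ano2, and coding TPM was not computed for the other anoctamins. A pair of members did not lead their family. Gnal held 16.0% of the G alpha sum behind Gnas, the broadly used stimulatory alpha subunit, at 719 TPM, and ahead of Gnao1 at 127 TPM and Gnai2 at 123 TPM. Slc24a4 held 31.9% behind Slc24a2 at 19.8 TPM, with Slc24a3 at 5.92 TPM and Slc24a5 at 0.181 TPM after it. In whole epithelium these shares pool all cell types, and fewer cells of a type cannot be told apart from less RNA per cell.

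None of the 3 G protein subunits passed the test between genotypes. Gnal (ENSMUSG00000024524.16, chr18:67088336-67226792, plus strand, GRCm38) encodes the alpha subunit of Golf, which carries the signal from receptor to cyclase. It had 283, 212 and 234 TPM in neo libraries, 231, 204 and 180.4 TPM in KO libraries, and 224 TPM in WT. The groups overlapped, and KO library 3 was the lowest. In the fit of the counts across all genes (edgeR's quasi-likelihood test with Benjamini-Hochberg adjustment), the neo over KO log2 fold change was 0.13 (95% interval -0.15 to 0.41, adjusted p = 0.794). Gnb1 (ENSMUSG00000029064.15, chr4:155491361-155559269, plus strand), the beta subunit, had 1026, 773 and 881 TPM in neo and 763, 824 and 785 TPM in KO, with 844 TPM in WT. On TMM-scaled counts it was the steadiest member, with 1438 to 1550.4 CPM over all 7 libraries, a coefficient of variation of 2.61%. Its log2 fold change was 0.05 (-0.19 to 0.29, edgeR adjusted p = 0.915). Gng13 (ENSMUSG00000025739.13, chr17:25717171-25719406, plus strand), the gamma subunit, had 927, 659 and 656 TPM in neo and 567, 642 and 683 TPM in KO, with 839 TPM in WT. Neo library 1 and WT, both with high Xist, were the highest for this gene. The neo over KO log2 fold change was 0.14 (-0.12 to 0.40, edgeR adjusted p = 0.746).

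Adcy3 (ENSMUSG00000020654.15, chr12:4133103-4213525, plus strand) encodes adenylyl cyclase III, the enzyme that makes cyclic AMP in the cilia. It had 97.4, 90.0 and 86.5 TPM in neo libraries and 77.1, 75.5 and 61.9 TPM in KO libraries, with 91.8 TPM in WT. On TPM every neo library lay above every KO library. On TMM-scaled counts the groups overlapped, at 248, 309 and 254 CPM in neo and 249.6, 232 and 199.7 CPM in KO, with 269 CPM in WT. The neo over KO log2 fold change of the counts was 0.25 (-0.03 to 0.52), which did not pass the test (edgeR adjusted p = 0.560).

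The 3 subunits of the cyclic nucleotide-gated channel turn the cyclic AMP signal into current. Cnga2 (ENSMUSG00000005864.7, chrX:71991849-72010218, plus strand), the principal subunit, had 229, 176 and 193.5 TPM in neo and 176, 174 and 158 TPM in KO, with 198 TPM in WT. Its neo over KO log2 fold change was 0.13 (-0.08 to 0.34, edgeR adjusted p = 0.711). The gene is X-linked, and the high-Xist libraries, neo 1 and WT, had 295 and 298 CPM, inside the span of 258 to 319.9 CPM set by the other 5 libraries. Cnga4 (ENSMUSG00000030897.5, chr7:105404568-105408742, plus strand), a modulatory subunit that speeds adaptation, had 41.7, 41.1 and 41.1 TPM in neo, all above the 35.4, 30.6 and 29.2 TPM in KO, with 37.2 TPM in WT. Its counts gave 59.6, 77.9 and 66.8 CPM in neo against 62.9, 52.0 and 52.0 CPM in KO and 61.2 CPM in WT, which overlapped. The log2 fold change was 0.29 (-0.0027 to 0.58, edgeR adjusted p = 0.538). Cngb1 (ENSMUSG00000031789.17, chr8:95239045-95306585, minus strand), the beta subunit, had 29.2, 23.9 and 24.9 TPM in neo and 24.4, 22.4 and 17.8 TPM in KO, with 24.7 TPM in WT. KO library 3 stood lowest and neo library 1 highest. The log2 fold change was 0.17 (-0.14 to 0.48, edgeR adjusted p = 0.737).

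Ano2 (ENSMUSG00000038115.16, chr6:125690419-126040126, plus strand) encodes the calcium-activated chloride channel that amplifies the receptor current. It had 74.0, 66.8 and 61.3 TPM in neo and 62.9, 52.6 and 44.7 TPM in KO, with 60.5 TPM in WT. Its groups overlapped through neo library 3 and KO library 1, and the log2 fold change was 0.17 (-0.09 to 0.43, edgeR adjusted p = 0.683).

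Slc24a4 and Stoml3 had the largest fold changes of the cascade between neo and KO, and neither passed the adjusted threshold of 0.05. Slc24a4 (ENSMUSG00000041771.13, chr12:102128733-102267091, plus strand) encodes NCKX4, the exchanger that removes calcium and ends the response. It had 24.5, 32.9 and 28.9 CPM in neo and 24.5, 22.5 and 19.5 CPM in KO, with 24.4 CPM in WT. Neo library 1 and KO library 1 were level, and the other neo libraries lay above the other KO libraries. Its log2 fold change was 0.37 (0.05 to 0.69, edgeR adjusted p = 0.502). On gene TPM, with 13.35, 13.4 and 13.7 TPM in neo, 11.9, 10.9 and 8.77 TPM in KO and 12.05 TPM in WT, the neo and KO libraries did not overlap. Stoml3 (ENSMUSG00000027744.4, chr3:53488653-53508502, plus strand) encodes a stomatin-domain membrane protein of olfactory cilia that is also needed for touch sensing in mouse skin neurons. It had 545, 650.0 and 557 CPM in neo, all above the 468, 449 and 505 CPM in KO, with 496 CPM in WT. TPM showed the same separation, at 528, 482 and 479 TPM in neo against 365, 368 and 398 TPM in KO and 428 TPM in WT. The log2 fold change was 0.30 (0.05 to 0.54, edgeR adjusted p = 0.498).

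**Figure D2:**
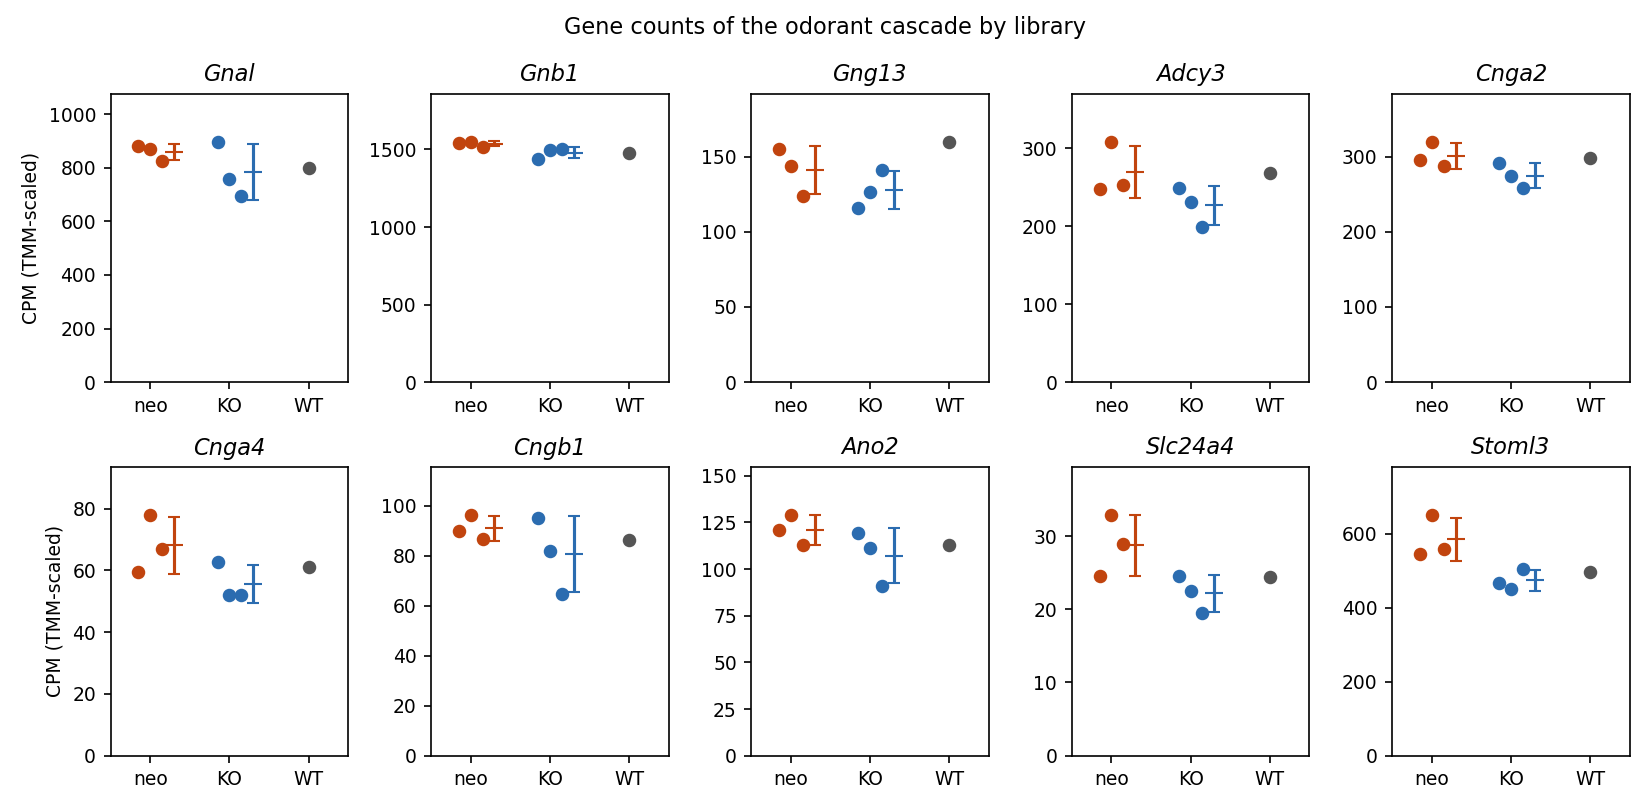
CPM (counts scaled by TMM) of each cascade gene, each panel with its own axis from 0, for the neo (3), KO (3) and WT (1) libraries, with bars for the mean and SD of neo and of KO. Stoml3 and Gnb1 had every neo library above every KO library, Slc24a4 separated by less than the plot can show (24.5384 CPM in neo library 1, 24.5362 CPM in KO library 1), and the other 7 genes overlapped.

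As a set, the cascade genes were not called between neo and KO, although all 10 fitted values were above 0. In the edgeR fit of 17638 genes, 0.017% (3 genes) passed the adjusted threshold in all, and 0 of the 10 cascade genes did. At an unadjusted p under 0.05, 2 of 10 were higher in neo (Slc24a4 and Stoml3), beside 4.59% of all genes, and 0 were lower, beside 4.72% (9.32% in either direction). All 10 log2 fold changes were positive, beside 49.6% of all genes, with a median of 0.17 beside -0.0022 for all genes. Scaling to mature neuron markers shifted the median of all genes by -0.19 and each cascade gene by -0.18 to -0.19, which put 6 of the 10 below 0 and left the cascade median at -0.0071 beside -0.19 for all genes. On CPM scaled over the genes tested in this fit, every neo library lay above every KO library for 2 of 10 (Gnb1 and Stoml3), beside 7.72% of genes, and below for 0 of 10, beside 7.8%. On the CPM printed above, which are scaled over all genes, Slc24a4 also separated, by 24.5384 CPM in neo library 1 over 24.5362 CPM in KO library 1. The neo libraries lay above on gene TPM for 4 of 10 (Adcy3, Cnga4, Slc24a4 and Stoml3), beside 9.39% of genes. With limma on log2 gene TPM, 0 of 10 were called with a pseudocount of 0.1 or of 1, beside 0.00529% of genes in each fit. The authors' deposited table, which gives KO over neo, held all 10 below 0, from -0.05 (Gnb1) to -0.37 (Slc24a4), with a lowest adjusted p of 0.383 (Stoml3). Genes of a shared pathway and tissue are not independent of each other.

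Variation of the cascade among the KO libraries was as large as its difference between neo and KO. Set against the KO mean of each gene on the log2 CPM scale, the median deviation over the 10 genes was 0.16, 0.28 and 0.10 in neo libraries 1, 2 and 3. It was 0.15, 0.01 and -0.13 in KO libraries 1, 2 and 3, and 0.12 in WT. KO library 1 thus lay between the neo libraries, and KO library 3 lowest of all. On both CPM and TPM, KO library 3 was the lowest for 7 of the 10 genes. Neo library 2 was the highest for 8 genes on CPM, and neo library 1 the highest for 9 on TPM. Without neo replicate 1, the female-type one, all 10 values stayed above 0 with a median of 0.18. Without KO replicate 3 the members' median neo over KO log2 fold change was 0.12, and without KO replicate 1 it was 0.28. That KO library 3 also held 289.6 TPM of summed ensheathing glia markers, against 91.0 to 114 TPM in the other 6 libraries, and the part of those markers in the result was not tested.

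**Figure D3:**
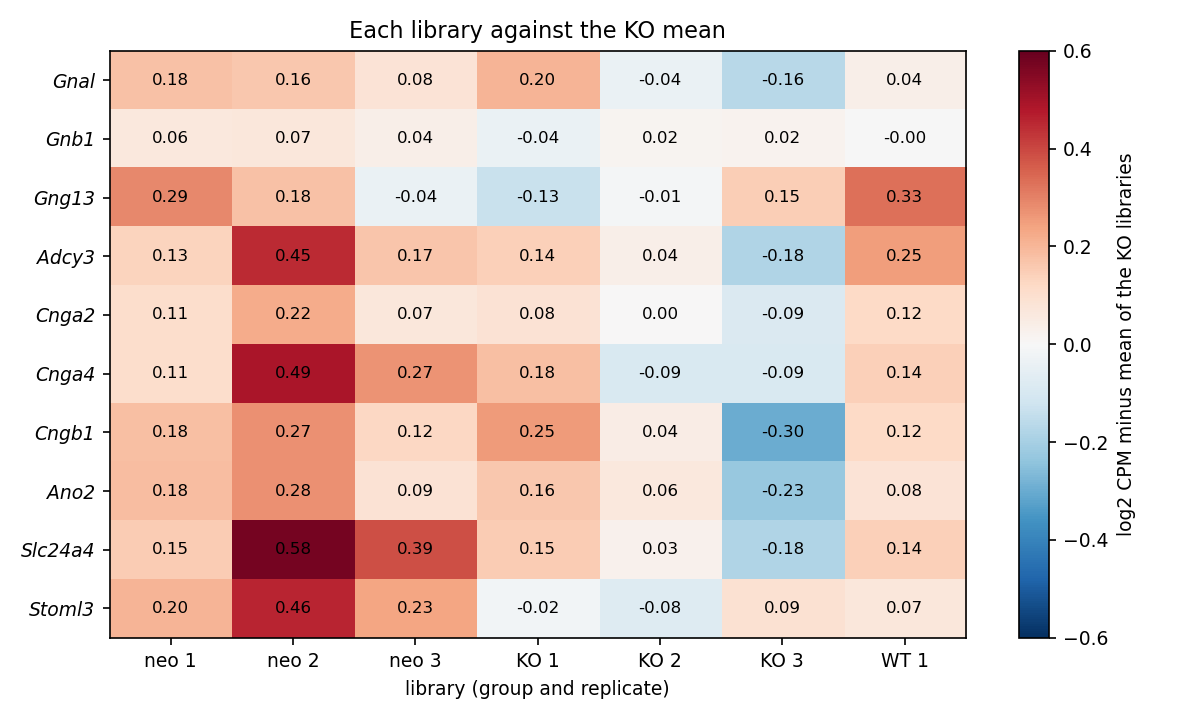
Each cell gives log2 CPM of a cascade gene in a library minus the mean log2 CPM of the 3 KO libraries (colour scale -0.6 to 0.6). Neo library 2 (median 0.28 over the 10 genes) is reddest, KO library 3 (median -0.13) is bluest for 7 genes, and KO library 1 (median 0.15) resembles the neo libraries in level.

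Summed levels of several marker lists stood apart between neo and KO, although no marker gene was called (lowest edgeR adjusted p 0.384). Gene TPM ran higher in neo in general. The median neo over KO log2 fold change of all genes was 0.097 on gene TPM (pseudocount 0.1) and -0.0022 on counts. The part of that shift in the TPM sums was not tested. The summed TPM of the 9 mature neuron markers, none of them a cascade gene and none at 0 in all libraries, was 2335 to 2713 in neo, 2118 to 2236 in KO and 2549 in WT. The summed TPM of the 10 cascade genes was 3249, 2536 and 2672 in neo, 2314, 2405 and 2367 in KO, and 2759.6 in WT. Divided by the mature marker sum of the same library, the cascade sum was 1.12 ± 0.0639 in neo (SD, n = 3), 1.09 ± 0.0504 in KO (SD, n = 3) and 1.08 in WT. Per Omp it was 4.18 ± 0.566 in neo, 4.44 ± 0.122 in KO and 4.13 in WT. On both measures the neo and KO libraries overlapped. Under the scaling to mature markers, Slc24a4 (0.19), Stoml3 (0.11), Cnga4 (0.10) and Adcy3 (0.06) were the 4 cascade genes above 0. Sustentacular cell markers (5 genes) summed to 4299.9 to 5352 TPM in neo and 3344 to 4078 TPM in KO, with 4258 TPM in WT, and most of that sum was Cyp2a5. In log2 fold change the list was uneven, from 0.029 for Cyp1a2 to 0.66 for Sult1c1. Macrophage markers (4 genes) summed to 53.3 to 74.7 TPM in neo and 37.5 to 43.2 TPM in KO, with 41.6 TPM in WT. Of these, Aif1 had a log2 fold change of 1.01 and Csf1r of -0.047. The mature markers were uneven too, from -0.12 (S100a5) to 0.44 (Umodl1). Bone markers (6 genes) summed to 931 to 2258 TPM in neo and 2602 to 3878 TPM in KO, with 2780.1 TPM in WT. All 6 had every neo library below every KO library on CPM, beside 7.8% of all genes. Immature neuron markers (9 genes) summed to 1977 to 2979 TPM in neo, 2192 to 2693 TPM in KO and 2683 TPM in WT, and overlapped. No list had a gene listed at 0 in every library, and the part of the markers other than the mature ones in the cascade values was not tested.

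Ratios within a library, which do not depend on its scaling, gave the relative levels of the transcripts in whole epithelium. They pool all cell types, so those with the widely expressed Gnb1 do not give the proportions within olfactory neurons. For each unit of Cnga2 TPM there were 0.209 ± 0.0260 of Cnga4 in neo, 0.187 ± 0.0127 in KO (SD, n = 3 each) and 0.188 in WT. The matching Cngb1 to Cnga2 ratio was 0.131 ± 0.00474 in neo, 0.127 ± 0.0130 in KO and 0.125 in WT. Cnga2 transcripts were thus the most abundant of the 3 channel subunits and Cngb1 the least, in all libraries. The Ano2 to Cnga2 ratio was 0.340 ± 0.0349 in neo, 0.314 ± 0.0381 in KO and 0.305 in WT. For the exchanger, Slc24a4 to Cnga2 was 0.0685 ± 0.00921 in neo, 0.0619 ± 0.00601 in KO and 0.0608 in WT. Stoml3 exceeded Cnga2, with ratios of 2.51 ± 0.220 in neo, 2.23 ± 0.247 in KO and 2.16 in WT. Among the G protein subunits, Gnal to Gnb1 was 0.272 ± 0.00533 in neo, 0.260 ± 0.0383 in KO and 0.265 in WT. Gnal to Gng13 was 0.328 ± 0.0265 in neo, 0.330 ± 0.0727 in KO and 0.267 in WT. Cyclase to alpha subunit, Adcy3 to Gnal, was 0.379 ± 0.0416 in neo, 0.349 ± 0.0188 in KO and 0.410 in WT. The neo and KO libraries overlapped for all 8 ratios. Exact two-sided permutation tests gave p from 0.3 to 0.9 (adjusted over the 8 ratios, 0.64 to 0.9), where 3 libraries against 3 allow no p below 0.1.
On coding transcripts alone the Cnga4 to Cnga2 ratio was 0.293 ± 0.0257 in neo, 0.263 ± 0.0170 in KO and 0.267 in WT, and the Cngb1 to Cnga2 ratio was 0.180 ± 0.00248 in neo, 0.174 ± 0.0149 in KO and 0.171 in WT. The coding Ano2 to Cnga2 ratio was lower than on gene TPM, at 0.234 ± 0.0220 in neo, 0.225 ± 0.0186 in KO and 0.225 in WT. Coding ratios of Slc24a4 and of Stoml3 to Cnga2 were higher than on gene TPM.

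Transcript estimates split each gene among its annotated forms, and 23 of the 46 member transcripts held at least 5% of their gene's TPM. Stoml3-201 (98.7% of gene TPM over the 7 libraries), Cnga4-201 (98.9%), Gng13-201 (96.9%) and Gnal-202 (90.7%) were nearly the only form of their genes, with Gnal-201 holding the other 9.33%. Cnga2-201, the coding form of 7 exons and 3064 bases, held 71.1%, and Cnga2-202, a non-coding transcript of 2 exons and 368 bases, held 28.9%. Adcy3-201 (21 exons) held 66.0%, Adcy3-207 16.7% and Adcy3-204 10.2%, and these forms have coding lengths of 3435, 3432 and 3435 bases. Gnb1 was spread over Gnb1-201 (32.3%), Gnb1-208 (24.8%) and Gnb1-202 (22.8%), all with the same coding length of 1020 bases, and Gnb1-207 (12.6%), whose annotated coding part is 324 bases. For Ano2, the coding Ano2-204 (26 exons, coding length 3006 bases) held 50.7%, Ano2-202, annotated as a target of nonsense-mediated decay, held 22.6%, and the non-coding Ano2-203 held 21.8%.

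Cngb1 is known in olfactory neurons for a short form, Cngb1b, and in rods for a long form with an added N-terminal part. The transcript with most of the estimate here was the long Cngb1-202 (33 exons, coding length 3975 bases), with 19.9, 15.9 and 16.3 TPM in neo, 17.7, 14.9 and 11.3 TPM in KO and 16.8 TPM in WT. The short Cngb1-203 and Cngb1-204, with 21 exons and a coding length of 2598 bases each, summed to 8.41, 7.37 and 7.95 TPM in neo, 5.71, 6.92 and 5.34 TPM in KO and 7.05 TPM in WT. They made up 23.4% to 32.0% of the gene's TPM over the libraries. At the shared 3′ end the annotation of Cngb1-202 runs 1936 bases beyond that of Cngb1-203 and 1942 bases beyond that of Cngb1-204. Reads from that stretch cannot be assigned to the short forms, and how much of the split follows from it was not tested.

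No main transcript share passed the adjusted test between neo and KO, and for Slc24a4 alone among the 10 genes the share differed without overlap. How many of all genes would separate in this way was not counted. Slc24a4-203 (17 exons, 1955 bases) held 37.2%, 37.6% and 44.4% of gene TPM in neo and 52.3%, 53.5% and 52.7% in KO, with 48.3% in WT. All 3 neo libraries lay below all 3 KO libraries, by 13.1 percentage points between means (39.7% ± 4.04 in neo, 52.8% ± 0.625 in KO, SD, n = 3 each). The exact two-sided permutation test gave p = 0.1, the smallest that 3 against 3 allow, and 0.714 adjusted over the 10 genes. The level of Slc24a4-203 itself overlapped, at 4.96, 5.04 and 6.09 TPM in neo, 6.23, 5.84 and 4.62 TPM in KO and 5.82 TPM in WT. The level of Slc24a4-202 was 4.83, 4.69 and 4.83 TPM in neo, all above the 3.49, 2.89 and 3.22 TPM in KO, with 4.08 TPM in WT. Slc24a4-201 gave 3.56, 3.66 and 2.80 TPM in neo, all above the 2.19, 2.18 and 0.93 TPM in KO, with 2.14 TPM in WT. How many of all transcripts separate in level was not counted either. These forms rest on 353 to 576 counts for the whole gene in a library, the fewest of the cascade. For the other 9 genes the shares overlapped, with exact permutation p from 0.2 to 1. Gnal-202 held 89.2% ± 2.75 in neo and 92.1% ± 1.09 in KO, and Adcy3-201 held 70.0% ± 5.49 in neo and 62.7% ± 7.72 in KO.

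**Figure D4:**
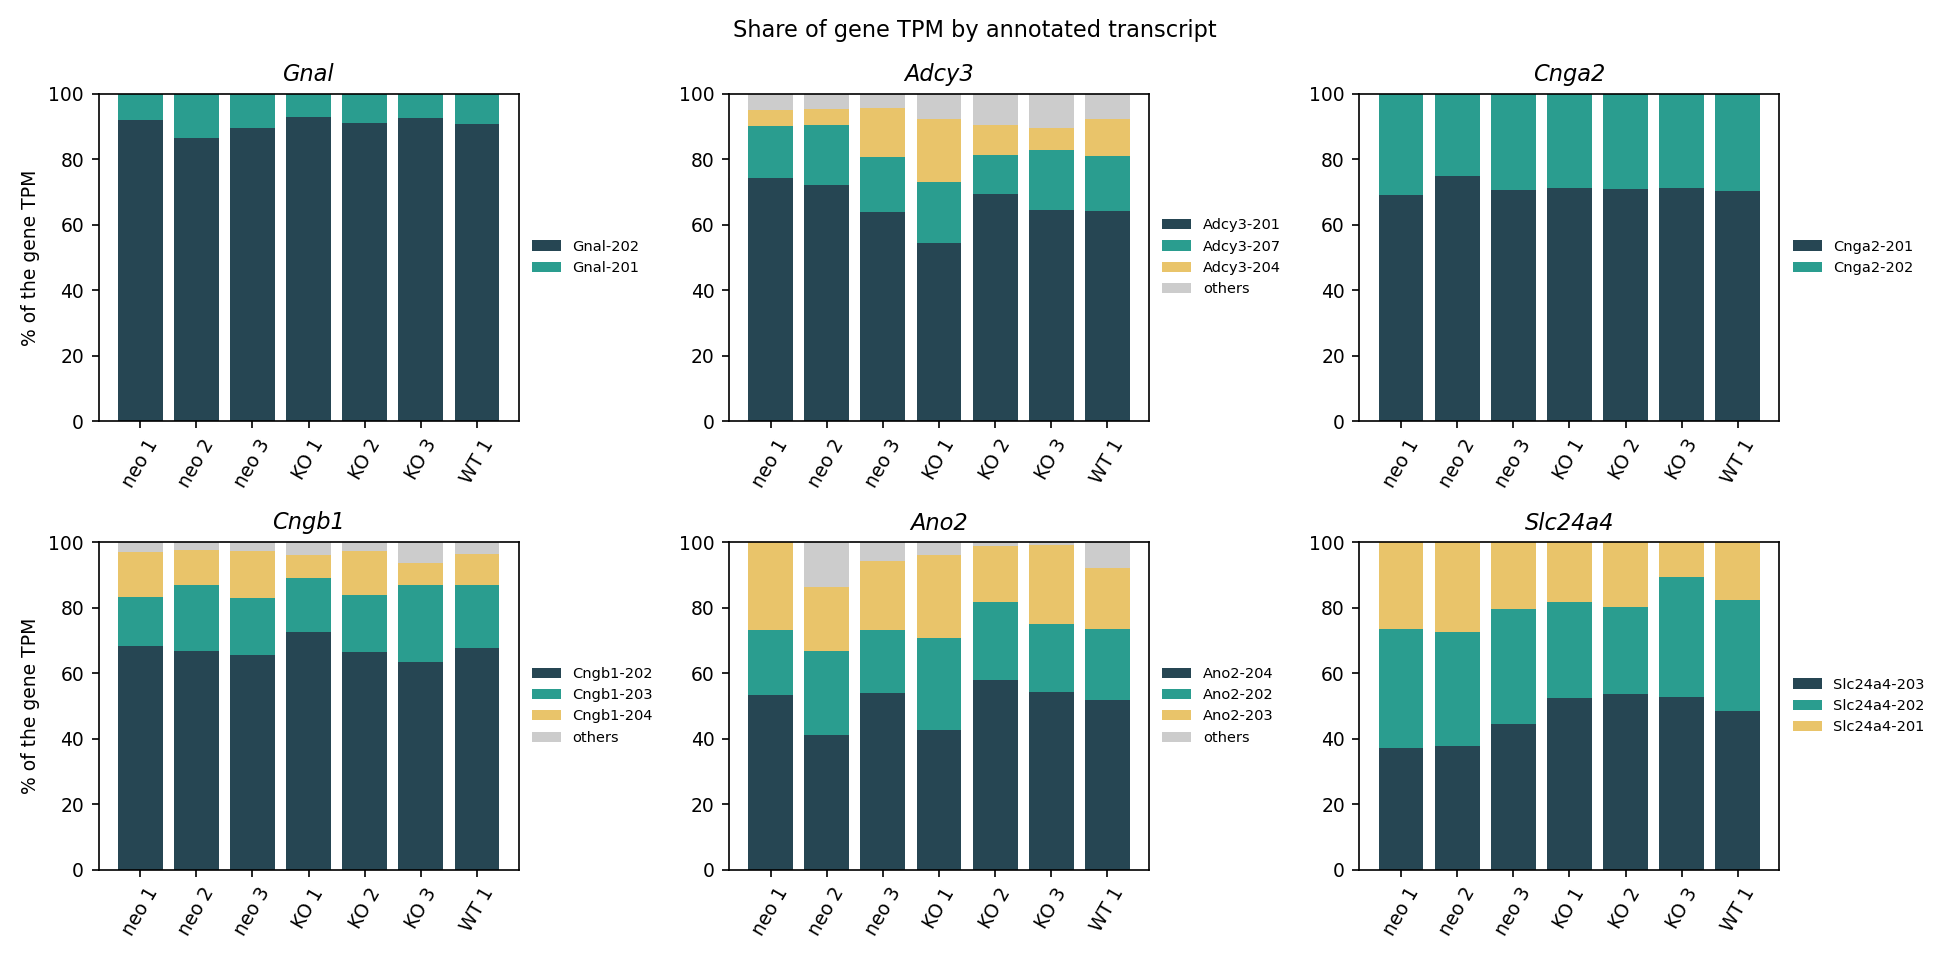
Share of gene TPM held by each annotated transcript in each neo, KO and WT library, for the 6 cascade genes whose main form held under 95% other than Gnb1, with forms under 5% pooled as others. Slc24a4-203 held 37.2% to 44.4% in neo and 52.3% to 53.5% in KO, and the shares of the other main forms overlapped between neo and KO.

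In the limma fit of 44981 transcripts on log2(TPM + 0.1), 35 member transcripts passed the filter of a mean TPM of 0.5, and 0 were called, beside 0% of all transcripts. At an unadjusted p under 0.05, 6 were higher in neo, beside 3.84% of all, and 1 was lower, beside 1.35%. Fold changes were positive for 27 of 35, beside 62.7% of all transcripts, with a median of 0.23 beside 0.13. The smallest p was for Stoml3-201, with a log2 fold change of 0.39 (limma adjusted p = 0.821). Gnal-201, the minor form, followed with 22.9, 28.8 and 24.8 TPM in neo against 16.5, 18.7 and 13.4 TPM in KO and 20.98 TPM in WT (log2 fold change 0.66, limma adjusted p = 0.868). Every neo library lay above every KO library for that form, whereas the major Gnal-202 overlapped. The same separation was seen for Adcy3-201, Cnga2-201, Cnga4-201, Cngb1-203, Gnb1-208, Slc24a4-201, Slc24a4-202, Stoml3-201 and Stoml3-202. Adcy3-202 had every neo library below every KO library. How many of all transcripts separated in this way was not counted. Adcy3-201 had a log2 fold change of 0.52 and Cnga4-201 of 0.39, each with a limma adjusted p of 0.868. The single lower form, Adcy3-202, held 4.34% of the gene and was chosen for mention after its value was seen (log2 fold change -1.01, limma adjusted p = 0.868). A further 7 member transcripts were listed at 0 in all libraries, 5 of them of Cngb1.

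KO set against WT asks what loss of Amigo1 does without the cassette, with 1 WT library. The WT library had the high Xist and near-absent Ddx3y of a female, and all 3 KO libraries the reverse, so sex and genotype cannot be told apart here. Amigo1 itself, at 0, 0.432 and 0.883 CPM in KO against 34.2 CPM in WT, was not called lower in the fit given next. With 1 WT library, that fit therefore cannot show whether changes as small as those of the cascade genes were present. In a fit of all 7 libraries, in which WT is assumed to vary like the other groups, edgeR called 0.00523% of 19123 genes (1 gene), and 0 of the 10 cascade genes. Unadjusted p under 0.05 was met by 0 cascade genes and by 0.727% of all genes (0.288% higher and 0.439% lower in KO). Only Gnb1 had a value above 0, so 1 of 10 was positive beside 51.7% of all genes, with a cascade median of -0.11 beside 0.0079 for all genes. Under scaling to mature markers 8 of 10 were positive, with the median of all genes at 0.17. The farthest from 0 was Gng13, with 116, 126 and 141 CPM in KO against 159.9 CPM in WT, a log2 fold change of -0.32 (95% interval -0.68 to 0.03, edgeR adjusted p = 1). Next was Adcy3 at -0.24 (-0.63 to 0.15, edgeR adjusted p = 1). These genes and Cnga2 were the 3 of 10 with every KO library below WT on CPM, beside 20.9% of all genes, and 0 had every KO library above it, beside 19.5%. Of the 5 erythroid markers 5 had every KO library below WT on CPM, with a median log2 fold change of -0.50, and their part in the cascade values was not tested.

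Neo set against WT shares the WT library with the comparison just given and the neo libraries with the first, so the 3 are not independent. EdgeR called 0.0105% of 19123 genes (2 genes), and 0 of the 10 cascade genes, each with an adjusted p of 0.999939. Unadjusted p under 0.05 was met by 0 cascade genes and by 2.97% of all genes (1.24% higher and 1.72% lower in neo). Under scaling to mature markers 7 of 10 values were above 0, with a median of 0.060 beside -0.017 for all genes. In the test as reported 9 of 10 were above 0, beside 51% of all genes, with a median of 0.084 beside 0.0057 for all genes. Slc24a4 (0.23, 95% interval -0.23 to 0.70) and Stoml3 (0.23, -0.12 to 0.59) were the farthest above 0, and Gng13 (-0.19, -0.54 to 0.17) was the single gene below. On CPM, Gnal, Gnb1, Cngb1, Ano2, Slc24a4 and Stoml3 had every neo library above WT, 6 of 10 beside 21.8% of genes, and Gng13 every neo library below it, 1 of 10 beside 22.1%. On gene TPM, Ano2, Cnga4, Slc24a4 and Stoml3 had every neo library above WT, and no cascade gene had every neo library below it. The share of all genes that did so on gene TPM was not counted, so no background stands beside these. On CPM the neo libraries all lay below WT for 5 of 5 erythroid and 6 of 6 bone markers and all above it for 3 of 4 macrophage markers, and the part of those markers in the cascade values was not tested.
Adcy3 and Cnga2 were nearly level between neo and WT, at 0.0032 (-0.39 to 0.40) and 0.0096 (-0.29 to 0.31).

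**Figure D5:**
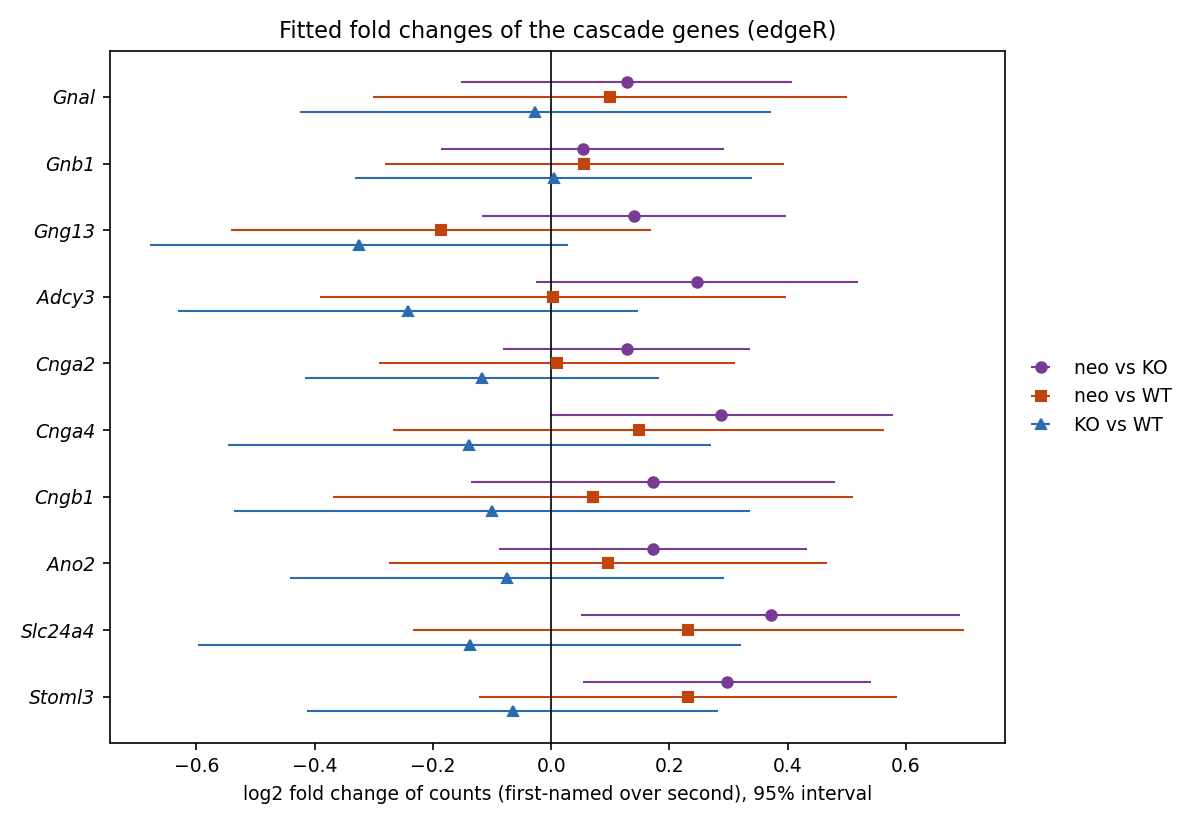
Log2 fold changes of the cascade genes' counts fitted by edgeR, with 95% intervals, for neo over KO (circles), neo over WT (squares) and KO over WT (triangles). All intervals include 0 except those of Slc24a4 and Stoml3 for neo over KO, and none passed adjustment. Scaling to mature neuron markers moves the neo over KO values by -0.18 to -0.19, as it does the median of all genes (-0.19), and puts 6 of the 10 below 0.

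The genes that work around the cascade gave no call either. Among these partner genes Ric8b, Pde1c, Omp, Gfy, Rtp1 and Rtp2 are also mature neuron markers, so the partner and marker lists are not independent. Of 13 partner genes tested, 0 were called between neo and KO, 1 was higher at an unadjusted p under 0.05 (Ric8b), and 10 were positive, with a median of 0.067. The shares over all genes were 0.017% called, 4.59% higher at that p and 49.6% positive. Those with the smallest p were Ric8b, an exchange factor that helps Golf accumulate (log2 fold change 0.29, edgeR adjusted p = 0.471), and Rtp1, a chaperone of odorant receptors (0.20, edgeR adjusted p = 0.545). Omp, which buffers cyclic AMP in the mature neuron, had 0.26 (edgeR adjusted p = 0.579), and Grk3, a receptor kinase of the cilia, had -0.21 (edgeR adjusted p = 0.662). Among 16 genes of ciliary transport and ciliopathy, 0 were called, 1 was lower at an unadjusted p under 0.05 (Arl13b), beside 4.72% of all genes, and 10 were positive, beside 49.6%, with a median of 0.032. Arl13b, a ciliary membrane GTPase, had the smallest p of these genes, with a value below 0, -0.33 (edgeR adjusted p = 0.502). Bbs9, of the BBSome coat that moves membrane proteins in cilia, had 0.19, Ift88, of intraflagellar transport, 0.19, and Kif17, a ciliary kinesin, 0.31, with edgeR adjusted p of 0.560, 0.572 and 0.659.

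Likeness across libraries was measured as the root mean square difference between a gene's centred log2 CPM and the mean centred profile of the 10 cascade genes, over 7 libraries. Cnga2 followed the mean profile most closely, at 0.0377, and Gng13 least, at 0.178, beside a median of 0.189 over 10981 genes of at least 10 CPM. Outside the cascade the nearest genes were Syne3 (0.0308), Etv5 (0.0439), Cyb5a (0.0441), Rai1 (0.0445) and Oscp1 (0.0486). The 9 mature neuron markers ranged from 0.0802 (Rtp1, rank 125) to 0.228 (S100a5, rank 7653), with Omp at 0.110 (rank 703). The libraries share their scaling and the members entered their own mean, so these distances are a description.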

How the data were processed

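Gene counts, gene TPM, transcript TPM and transcript FPKM were used as the authors deposited them. Per the submitters' processing notes, Trimmomatic 0.35, STAR 2.5.1b, RSEM and DESeq2 1.18.1 were used on GRCm38, with no role given for each. The deposited count table is named as stranded, and the TPM and FPKM values come from RSEM, per the file headers. The authors' deposited table also held a log2 fold change of KO over neo and its p-values, which were copied, while 7 columns of per-sample values in it were not used. Its sign was checked against the counts. In the count table, 4 summary rows held 35.6% to 41.8% of reads and were left out of library sizes. Gm42418, which overlaps ribosomal RNA sequence, held 9.83% to 16.5% of gene counts. Member coordinates were the files' own, and 8 of the 10 were the same in GENCODE mouse release 21, which gave transcript lengths where versions matched.

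Counts were tested with edgeR 4.0.16 in R 4.3.3 (TMM, filterByExpr with a minimum count of 10 and total of 15, robust quasi-likelihood fit, two-sided, Benjamini-Hochberg over all genes at 0.05), neo against KO on 6 libraries and against WT on all 7. Transcripts were tested with limma 3.58.1 on log2(TPM + 0.1), which understates changes of low values, at a mean TPM of at least 0.5. Ratios and shares were tested by exact permutation. Both tests across features were tried on simulated data with planted changes larger than any fitted for a cascade gene. The simulation therefore does not show whether changes as small as those of the cascade genes could be called. Member counts of 353 to 36254 limit counting error, and reads without molecular identifiers are not independent molecules. Members and lists were chosen with earlier results of these data known. Named were all members, up to 3 leading paralogs per family, up to 4 partners and up to 4 transport genes with the smallest p, transcripts of at least 5% of a gene, and the 5 genes nearest in pattern. Alternatives were other scalings and filters, DESeq2 1.42.0, gene TPM, a replicate block and leaving out each replicate. The shorter promoter core, the scaling without Gm42418 and the coding-transcript ratios were added after seeing the data.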

Additional observations from a re-analysis of the deposited data

How the results depend on the processing

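No cascade gene was called between neo and KO under any of 16 alternatives (lowest adjusted p 0.206, Slc24a4 without neo replicate 1), and all 10 stayed above 0 in 15 of them. The exception was scaling to mature neuron markers, with -0.050 for Gnal, -0.056 for Cnga2, -0.0057 for Cngb1, -0.0086 for Ano2, -0.048 for Gng13 and -0.13 for Gnb1; the scaling shifts every gene, by -0.18 to -0.19 for the cascade and -0.19 for the median of all genes. That scaling also turned KO over WT to 0.13 for Gnal, 0.042 for Cnga2, 0.017 for Cnga4, 0.053 for Cngb1, 0.082 for Ano2, 0.019 for Slc24a4 and 0.097 for Stoml3, and neo over WT to -0.023 for Adcy3 and -0.014 for Cnga2. KO over WT for Gnb1 was -0.00075 with at least 50 counts in 3 libraries, where fewer genes were tested, and 0.0041 in the test as reported. Leaving out a replicate (fewer samples) turned KO over WT for Gnal (-0.14 to 0.053), Cngb1 (-0.24 to 0.036), Ano2 (-0.17 to 0.032) and Gnb1 (-0.0065 to 0.017), and neo over WT for Adcy3 (-0.095 to 0.077) and Cnga2 (-0.029 to 0.040).

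The number of genes called between neo and KO, 3, was 40 with no filter on low counts, 1 with at least 50 counts, 98 with DESeq2, 6 under scaling to mature markers (1 higher and 5 lower in neo, against 1 and 2 as reported), 1 with limma on TPM at either pseudocount, and 1 to 17 with a replicate left out (17 without neo replicate 1; leaving out neo library 3 gave 1, as did leaving out KO library 2 or KO library 3). KO over WT, 1 call, gave 2 with no filter, 6 with only the groups compared, and 1 to 4 with a replicate left out (4 without neo replicate 1, 2 without neo replicate 3). Neo over WT, 2 calls, gave 7 with no filter and 2 to 6 with a replicate left out (6 without neo replicate 1, 5 without KO replicate 1). The cause of these moves was not tested, apart from the samples or genes each leaves out or adds. Transcripts, 0 calls (at an unadjusted p under 0.05, 1726 higher and 605 lower), gave 1 with a pseudocount of 1 and 0 to 1 with a replicate left out (1 without neo replicate 2, and 1 without KO replicate 3). Same-numbered neo and KO libraries were not paired (correlations of -0.12 to 0.12, 1 of 3 over 0.1, and 2 of 6 libraries closest to their own number), and the replicate block gave 1 called gene and a member median of 0.18.

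The log2 ratio of Gnal to Gng13, neo minus KO, was 0.010 on TPM and -0.0017 on counts, and -0.14 to 0.17 with a replicate left out. The same leaving out gave -0.030 to 0.12 for Cngb1 to Cnga2 and -0.013 to 0.19 for Gnal to Gnb1. The neo minus KO difference in main-form share then ranged over -1.36 to 1.47 percentage points for Cnga2, -6.63 to 2.06 for Ano2, -0.189 to 0.411 for Gng13 and -2.77 to 1.81 for Cngb1. Signs of the transcript log2 fold change also turned when a replicate was left out, for Adcy3-204 (-0.69 to 0.28), Slc24a4-203 (-0.17 to 0.039) and Ano2-202 (-0.050 to 0.41).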
